A study of Bos taurus with 20 samples.

Results

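BMP2, BMP4, MSX2, DLX3, DLX5 and HAND1 were followed by gene symbol through 20 RNA-seq libraries of bovine (Bos taurus) embryos recovered at day 14. The 6 genes were taken from the 15542 genes of the deposited table as ligands of bone morphogenetic protein (BMP) signalling and transcription factors known to respond to it. BMP2 and BMP4 are the ligands, and MSX2, DLX3 and DLX5 encode homeobox proteins. HAND1 encodes a basic helix-loop-helix (bHLH) factor without a homeobox.

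The libraries fall into 4 groups. Fresh embryos (n = 6) were whole embryos that had not been vitrified, and fresh TE (n = 5) was trophectoderm isolated from such embryos. Vitrified embryos (n = 2) and vitrified TE (n = 7) were the same kinds of sample from embryos that had been cryopreserved by vitrification, which is cooling fast enough that water turns to glass instead of ice. All came from uterine flushing at day 14, when the embryo is elongating. The labels name no breed, age of cow or batch, and they do not say at which stage embryos were vitrified, whether samples were pooled, or whether whole embryos and TE shared a source. P-values therefore measure the spread among these libraries only.

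BMPs are secreted dimers that bind a pair of type I and type II receptors, which phosphorylate SMAD1, SMAD5 and SMAD9. These join SMAD4 in the nucleus and switch on targets such as the ID genes and the MSX and DLX homeobox genes. Secreted antagonists such as noggin, chordin and follistatin limit the ligands outside the cell, and SMAD6, SMAD7, BAMBI and the SMURF ligases limit the signal inside it. In mammalian embryos BMP4 acts between the epiblast and the tissues around it, and HAND1, DLX3 and MSX2 are known from trophoblast development.

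Values are RPKM, the reads of a gene scaled to 1000000 (1 M) reads of its library and to a kilobase of length. The length here was the genomic span with introns, so levels are compared between libraries and not between genes. Read numbers were recovered from the RPKM values: in each library 94.4 to 95.8% of values up to 1000 reads came within 0.1 of a whole number of reads. On the UMD3.1 assembly BMP2 lies on chromosome 13 from 49550050 to 49561304 (plus strand), BMP4 on chromosome 10 from 66751296 to 66755027 (minus strand) and MSX2 on chromosome 20 from 6360600 to 6365490 (plus strand). DLX3 lies on chromosome 19 from 37294970 to 37300145 (plus strand), DLX5 on chromosome 4 from 14291967 to 14296238 (minus strand) and HAND1 on chromosome 7 from 67715959 to 67719275 (plus strand). Each of these intervals is the whole gene span. All 6 genes passed the filter of at least 10 reads in at least 2 libraries. DLX3 reached 10 reads in 20 of 20 libraries, BMP2 and MSX2 in 18, DLX5 in 17, BMP4 in 16 and HAND1 in 12, and each of them would have passed on at least 2 of the groups taken alone.

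Some libraries stood apart before any comparison. Library totals ran from 6.01 to 14.5 M reads. In fresh TE the listed genes took 33.8 to 40.3% of the total, against 57.5 to 63.9% in the other groups, and mitochondrial messenger RNA took 1.09 to 1.41% of listed-gene reads, against 3.01 to 9.87%. Fresh TE libraries 1 and 2, and likewise 3 and 4, were nearly identical, with a ratio of chi-square to its degrees of freedom of 1.79 and 1.45, against 10.3 to 19.5 for the other 8 fresh TE pairs. They were kept apart here and averaged in an alternative analysis. All 16 trophoblast markers were detected in every group. The epiblast factor POU5F1 was at 1.05 to 6.01 RPKM in fresh embryos and 0 to 0.113 in fresh TE. Vitrified TE held 0.302 to 1.25 RPKM of it. The pair of vitrified embryos differed 65.1-fold, with 0.316 RPKM in embryo 1 and 20.6 in embryo 2, and NANOG was at 0 and 4.22 RPKM in them. Embryo 1, labelled a whole embryo, thus held little POU5F1 and no NANOG, and SOX2 was at 0.0813 RPKM in it and 2.98 in embryo 2. Not all epiblast markers were low in embryo 1. SALL4, DNMT3B and LIN28A were at least 1.28, 0.235 and 0.0948 RPKM in both vitrified embryos. In fresh embryos they were at most 0.888, 0.203 and 0.0597. In vitrified TE they ranged from 1.73 to 2.93, 0.265 to 0.462 and 0.0186 to 0.145 RPKM, overlapping the vitrified embryos in each. LIN28A rested on 9 and 13 reads in the vitrified embryos, and the epiblast marker PRDM14 was at 0 in 1 of them. Results for vitrified embryos are given with and without each of the pair.

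In vitrified against fresh TE, 4 of the 6 genes passed the test, with BMP4, MSX2 and DLX3 higher and BMP2 lower. Genes passing in either direction made up 75.6% of the 10599 tested, those higher 69% and those lower 6.66%. The count of 4 was thus near the background, and BMP2 was in the rarer direction. The groups did not overlap for 3 of the 6, BMP2 on the low and BMP4 and MSX2 on the high side. Over all tested genes 58.6% did not overlap, 54.6% higher and 3.96% lower after vitrification. The median difference of the 6 genes was 0.33 on the log2(RPKM + 1) scale and that of all tested genes 0.18. The latter includes many genes far below 1 RPKM, whose differences this scale shrinks. Among the 4989 genes with at least 1 RPKM in at least 2 libraries, which include all 6, the median was 0.66. The test throughout was limma with Benjamini-Hochberg adjustment over all tested genes, and a gene passed at an adjusted p under 0.05. This log2 scale understates changes of low values, so ratios of mean RPKM are given beside it.

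In vitrified against fresh whole embryos MSX2, DLX3 and DLX5 were higher and none of the 6 passed as lower. Of all tested genes 30.9% passed, 26.9% higher and 3.94% lower. The vitrified values of these 3 genes lay above all 6 fresh values, where 36% of all tested genes had groups without overlap (29.4% higher and 6.54% lower). The median over the 6 genes was 1.09, over all tested genes 0.06 and over genes with at least 1 RPKM in at least 2 libraries 0.2.

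Between fresh embryos and fresh TE all 6 genes differed, with BMP4 and MSX2 higher in whole embryos and BMP2, DLX3, DLX5 and HAND1 higher in TE. Of all tested genes 66% passed, 60% higher in whole embryos and 5.97% higher in TE. Groups did not overlap for BMP2, BMP4, DLX5 and HAND1, and for 51.4% of all tested genes (48.4% higher and 2.94% lower in whole embryos). The median over the 6 genes was -0.93, against 0.14 for all tested and 0.6 for genes with at least 1 RPKM in at least 2 libraries.

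Between vitrified embryos and vitrified TE MSX2 alone passed and alone had groups without overlap. Of all tested genes 18.9% passed (15.3% higher and 3.59% lower in whole embryos) and 26.3% did not overlap (20.4% and 5.94%). The medians were 0.1 over the 6 genes, 0.03 over all tested and 0.15 over genes with at least 1 RPKM in at least 2 libraries. The vitrification effect differed between whole embryos and TE for BMP2 and DLX5, in both towards higher values in whole embryos. Of all tested genes 32.3% passed this test of the difference, 3.98% in that direction and 28.4% in the other. These comparisons share groups: fresh TE enters the first and the third, and fresh embryos the second and the third, so their differences are not independent of each other.

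**Figure D1:**
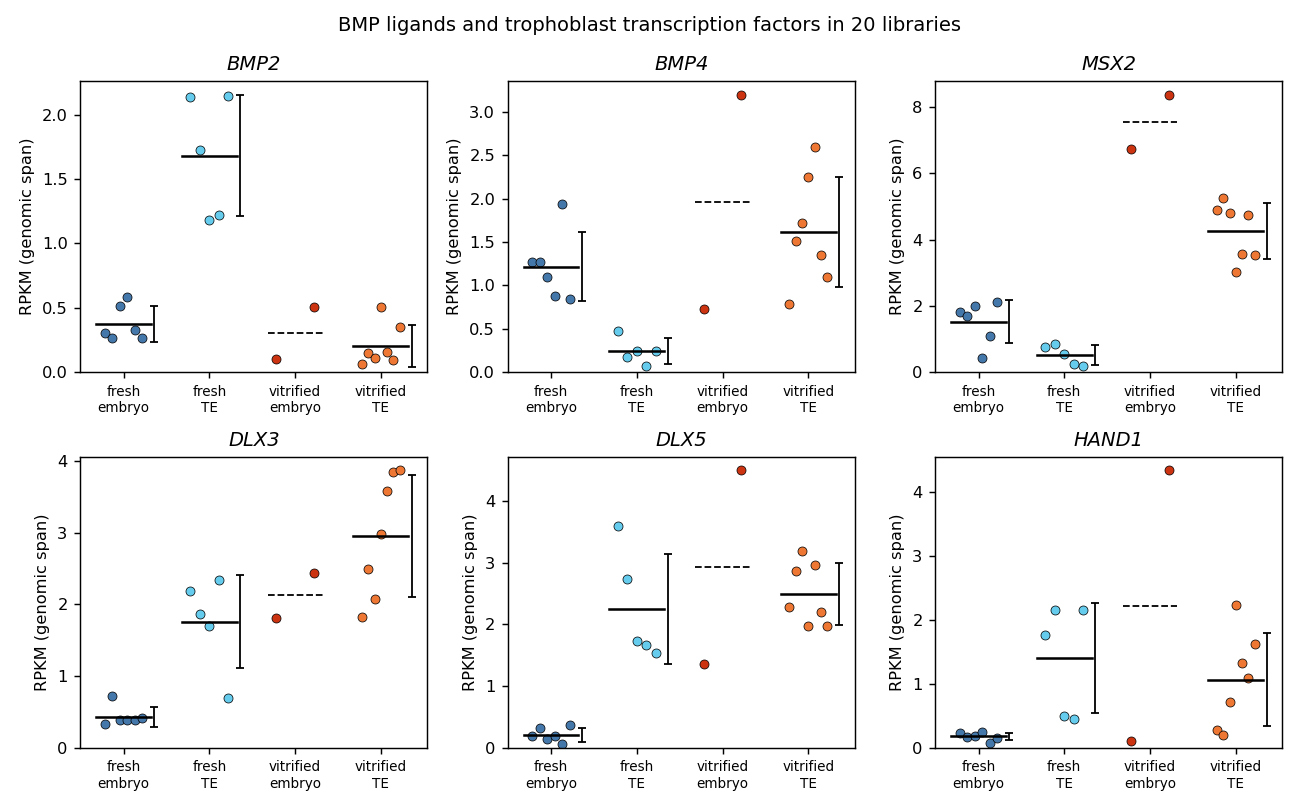
RPKM (per kilobase of genomic span, vertical axis) of the 6 genes in each library by group (horizontal axis), with points for libraries, solid lines for group means, bars for SD and dashed lines for the mean of the 2 vitrified embryos. BMP2 was highest in fresh TE, MSX2 rose above every fresh library in all vitrified ones, and DLX5 and HAND1 were lowest in fresh embryos on average.

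**Figure D2:**
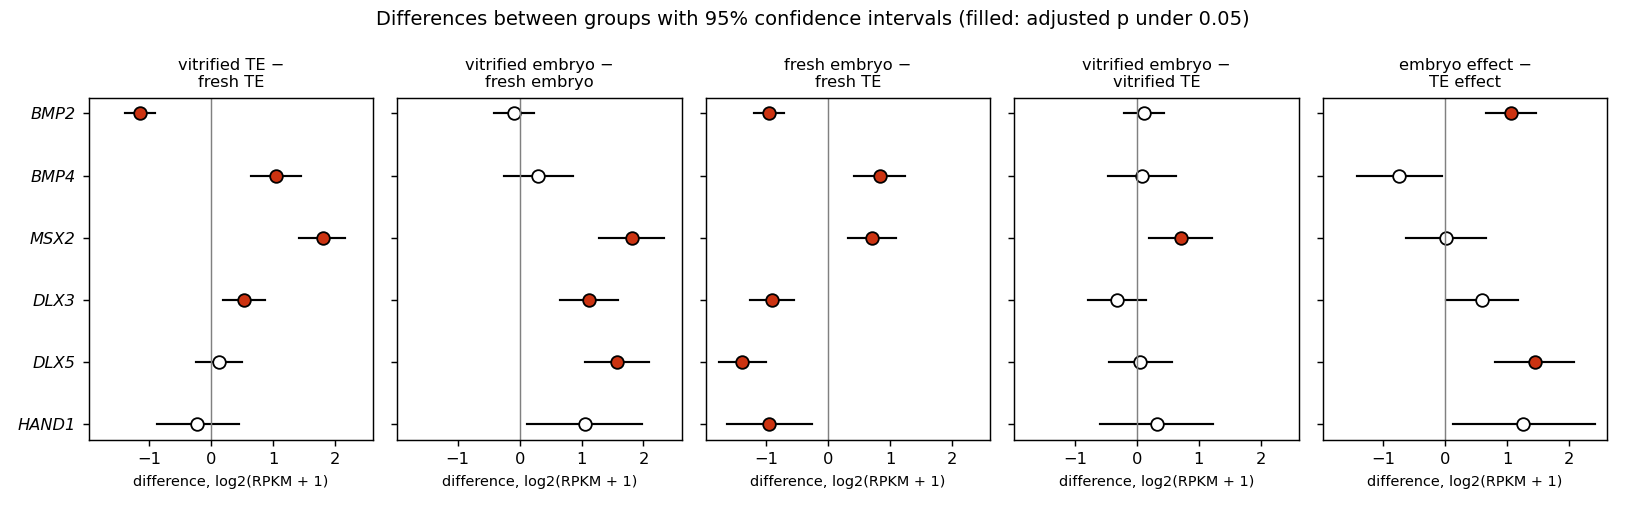
Differences of group means on the log2(RPKM + 1) scale (horizontal axis) for each gene (vertical axis) in the 5 comparisons, with 95% confidence intervals. Filled points passed an adjusted p of 0.05 in limma: 4, 3, 6, 1 and 2 genes from left to right.

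BMP2, one of the ligands, was highest in fresh TE. Its 5 libraries held 2.14, 1.73, 1.18, 1.22 and 2.15 RPKM (100 to 162 reads). None of the other 15 libraries exceeded 0.584, so fresh TE was separated from all of them. Vitrified TE ranged from 0.0651 through a median of 0.147 to 0.502 RPKM, fresh embryos from 0.261 through 0.313 to 0.584, and the vitrified embryos held 0.105 and 0.506. In vitrified TE the lowest values rest on 7 to 16 reads in 5 of the libraries, and libraries 4 and 7 stood above them at 0.502 and 0.353. The mean of vitrified TE was 8.28-fold below that of fresh TE (0.203 ± 0.162, SD, n = 7, against 1.68 ± 0.475, n = 5), with a difference of -1.15 (SE 0.11, adjusted p = 3.6e-08, limma). Fresh embryos were 4.5-fold below fresh TE (-0.95, SE 0.12, adjusted p = 1.1e-06). In whole embryos the difference with vitrification was -0.09 (95% interval -0.42 to 0.24, adjusted p = 0.71). The effects in whole embryos and in TE differed by 1.06 (SE 0.19, adjusted p = 0.00047). In order of mean level, fresh TE was followed by fresh embryos, vitrified embryos and vitrified TE, and only the step below fresh TE separated neighbouring groups.

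BMP4, the other ligand, had the opposite pattern and was lowest in fresh TE, at 0.477, 0.179, 0.239, 0.0737 and 0.24 RPKM (2 to 11 reads). Every other library exceeded 0.73 RPKM, the lowest being vitrified embryo 1 at 0.731. Vitrified TE held from 0.785 through a median of 1.51 to 2.59 RPKM and fresh embryos from 0.841 through 1.19 to 1.94. The mean of vitrified TE was 6.68-fold above that of fresh TE (1.61 ± 0.633, n = 7, against 0.242 ± 0.148, n = 5), a difference of 1.05 (SE 0.19, adjusted p = 7.5e-05, limma). Fresh embryos were 5.04-fold above fresh TE (0.83, SE 0.2, adjusted p = 0.0013). Fresh embryos, vitrified embryos and vitrified TE overlapped one another. Vitrified embryos 1 and 2 held 0.731 and 3.2 RPKM, the latter the highest of all 20 libraries, and the difference from fresh embryos did not pass (0.3, interval -0.26 to 0.86, adjusted p = 0.42). With embryo 2 as the lone vitrified embryo, assumed to vary like the other groups, it passed at 0.94 (adjusted p = 0.018), and with embryo 1 alone it was -0.34 (adjusted p = 0.48). The difference of effects, -0.75, missed the threshold (adjusted p = 0.09, limma). It was -0.11 without embryo 1 and -1.39 without embryo 2.

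Both ligands thus differed between fresh and vitrified TE, in opposite directions. Fresh TE also lay apart from fresh embryos in both, and from all other groups in its share of listed-gene reads. Whether vitrification or another trait of the fresh TE libraries gave these differences was not tested. The direction of the differences between TE groups did not depend on scaling. BMP2 was lower and BMP4 higher in vitrified TE as deposited, per M listed-gene reads, by median-ratio scaling and by quantile normalization. Whether the ranges stayed apart under the other scalings was not tested. The differences ran from -1.85 to -1.15 for BMP2 and from 0.62 to 1.05 for BMP4. With the near-identical fresh TE libraries averaged they were -1.19 and 1.04 (adjusted p = 5.4e-07 and 0.0009, limma).

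MSX2, a homeobox repressor and a known BMP target, was higher in all 9 vitrified libraries than in any of the 11 fresh ones. Vitrified embryos held 6.74 and 8.38 RPKM (278 and 367 reads), and vitrified TE ranged from 3.03 through a median of 4.74 to 5.25 (118 to 233 reads). Fresh embryos reached at most 2.13 RPKM and fresh TE at most 0.851. Within fresh TE the values were 0.762, 0.851, 0.547, 0.253 and 0.183 RPKM, and within fresh embryos 1.82, 1.68, 1.98, 0.437, 1.08 and 2.13, where library 4 was low enough to fall within the TE range. The mean of vitrified TE was 8.2-fold that of fresh TE (4.26 ± 0.856, n = 7, against 0.519 ± 0.297, n = 5), a difference of 1.8 (SE 0.18, adjusted p = 3.9e-08, limma). In whole embryos the vitrified mean was 4.98-fold the fresh mean of 1.52 ± 0.642 (n = 6), a difference of 1.81 (SE 0.25, adjusted p = 6.9e-05), and it passed without embryo 1 (1.94) and without embryo 2 (1.67). The effects in the 2 kinds of sample differed by 0.01, with an interval of -0.63 to 0.65 that leaves room for a sizeable difference either way.

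MSX2 was also the one gene that passed between vitrified embryos and vitrified TE (0.71, SE 0.24, adjusted p = 0.048). That call was marginal: it did not pass per M listed-gene reads (0.63, adjusted p = 0.1), nor when either vitrified embryo was left out (0.85 without embryo 1, adjusted p = 0.086, and 0.58 without embryo 2, adjusted p = 0.31). Of the 20 libraries, leaving out any of 12 ended the call: besides both vitrified embryos these were fresh embryos 1, 2 and 5, fresh TE 1 to 4 and vitrified TE 4, 5 and 7, where fresh libraries enter through the shared estimate of the spread. Fresh embryos exceeded fresh TE 2.93-fold (0.71, SE 0.18, adjusted p = 0.0025), but this difference was 0.43 per M listed-gene reads (adjusted p = 0.066) and 0.29 and 0.26 by median-ratio and quantile scaling (adjusted p = 0.2 and 0.27). The rise with vitrification passed under all 4 scalings, at 1.21 to 1.8 in TE and 1.44 to 1.81 in whole embryos.

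DLX3, a distal-less homeobox factor needed for the mouse placenta, was low in fresh embryos and higher elsewhere. Fresh embryos held 0.332 to 0.417 RPKM in 5 libraries and 0.715 in library 2 (12 to 32 reads in all). Fresh TE held 2.19, 1.87, 1.7, 2.34 and 0.693 RPKM, so that library 5 alone reached down into the range of fresh embryos. Vitrified embryos stood at 1.81 and 2.44 RPKM and vitrified TE at 1.82 to 3.88 with a median of 2.98. Vitrified embryos were 4.89-fold above fresh embryos (means 2.12 and 0.435 RPKM), a difference of 1.12 (SE 0.23, adjusted p = 0.0012, limma), which passed without embryo 1 (1.27, adjusted p = 0.0044) and without embryo 2 (0.98, adjusted p = 0.046). Fresh TE was 4.04-fold above fresh embryos (fresh embryo minus TE, -0.91, SE 0.17, adjusted p = 0.00011).

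In TE the vitrified mean of DLX3 was 1.68-fold the fresh one (2.95 ± 0.847, n = 7, against 1.76 ± 0.646, n = 5), a difference of 0.53 (SE 0.16, adjusted p = 0.0065), and the groups overlapped. This direction depended on scaling: it was 0.1 per M listed-gene reads (adjusted p = 0.62), -0.23 by median-ratio scaling (adjusted p = 0.26) and -0.3 by quantile normalization (adjusted p = 0.16). The effect in whole embryos exceeded that in TE by 0.59 (SE 0.28, adjusted p = 0.11), which passed without fresh TE 5 (0.76, adjusted p = 0.018) and under the other scalings (0.92 to 1.12).

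DLX5, another distal-less factor, was the gene that most clearly set fresh embryos apart. All 6 held 0.0628 to 0.367 RPKM (3 to 16 reads), and none of the other 14 libraries was below 1.36 (44 to 172 reads). Fresh TE held 3.6, 2.73, 1.73, 1.67 and 1.54 RPKM, vitrified TE 1.97 to 3.19 with a median of 2.28, and the vitrified embryos 1.36 and 4.5. Fresh TE was 10.6-fold above fresh embryos (fresh embryo minus TE, -1.39, SE 0.18, adjusted p = 2.5e-06, limma), and vitrified embryos were 13.7-fold above them (1.57, SE 0.25, adjusted p = 0.00018). The latter passed without embryo 1 (2.18, adjusted p = 9.5e-06) and without embryo 2 (0.97, adjusted p = 0.023). Both folds rest on the low counts of the fresh embryos.

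In TE the levels of DLX5 were 2.49 ± 0.503 (n = 7) after vitrification and 2.25 ± 0.889 RPKM (n = 5) without it, a difference of 0.13 (interval -0.24 to 0.5, adjusted p = 0.51). By the other scalings vitrified TE was the lower one, at -0.33 per M listed-gene reads (adjusted p = 0.13), -0.67 by median-ratio scaling (adjusted p = 0.0024) and -0.76 by quantile normalization (adjusted p = 0.0012). The effect in whole embryos exceeded that in TE by 1.45 (SE 0.3, adjusted p = 0.0015), and by 1.78 to 2.01 under those scalings.

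HAND1, the bHLH factor, needed in the mouse for trophoblast giant cells, was lowest in fresh embryos as well, at 0.0808 to 0.248 RPKM. These are 3 to 11 reads per library, so counting error weighs on them. Fresh TE split into libraries 1, 2 and 5 at 1.76, 2.16 and 2.16 RPKM and libraries 3 and 4 at 0.499 and 0.456. The near-identical pairs of fresh TE thus lie on different sides of this split. Vitrified TE was spread 11.2-fold, with 0.284, 0.199, 0.722, 2.23, 1.32, 1.09 and 1.62 RPKM in libraries 1 to 7, and overlapped both fresh groups. Fresh TE was 7.96-fold above fresh embryos without overlap (fresh embryo minus TE, -0.95, SE 0.33, adjusted p = 0.017, limma).

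The pair of vitrified embryos differed 40.5-fold in HAND1, with 0.107 RPKM (3 reads) in embryo 1 and 4.34 RPKM (129 reads) in embryo 2, the highest of all 20 libraries. The vitrified embryos as a pair did not differ from fresh ones past the threshold (1.05, SE 0.44, adjusted p = 0.081). Without embryo 1 the difference was 2.18 (adjusted p = 0.0014) and without embryo 2 it was -0.09 (adjusted p = 0.93), so embryo 2 alone carried it. Between vitrified embryos and vitrified TE HAND1 differed by 0.32 (adjusted p = 0.65, limma) with both embryos, by 1.45 without embryo 1 and by -0.82 without embryo 2. The difference of effects was 1.26 (SE 0.55, adjusted p = 0.084, limma), 2.4 without embryo 1 and 0.13 without embryo 2. Under the other scalings it was 1.53 to 1.72 and passed. In TE the difference with vitrification was -0.22 (interval -0.88 to 0.45, adjusted p = 0.54). It was -0.82 by median-ratio scaling (adjusted p = 0.028) and -0.92 by quantile normalization (adjusted p = 0.016).

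**Figure D3:**
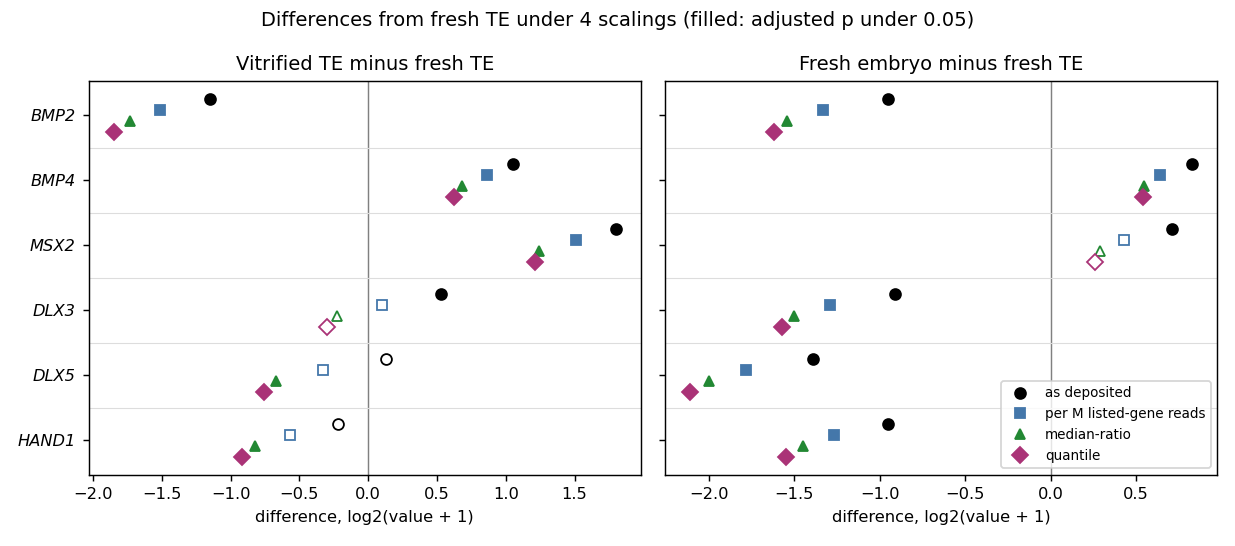
Differences of vitrified TE (left) and fresh embryos (right) from fresh TE on the log2(value + 1) scale (horizontal axis) under 4 scalings, by gene (vertical axis). Filled symbols passed an adjusted p of 0.05 in limma: BMP2, BMP4 and MSX2 kept their side of 0 and passed on the left under all 4, while DLX3 and DLX5 crossed 0.

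The choice of scaling acted on the whole table in comparisons with fresh TE. The median difference of all genes between vitrified and fresh TE was 0.18 as deposited, 0.06 per M listed-gene reads and 0.01 and -0.01 by the other scalings. Relative to that median, BMP4 and MSX2 rose and BMP2 fell under each scaling. The share of higher genes among those that passed went from 91.2% to 75.8, 56.2 and 40.4%. Whether the low listed-gene share of fresh TE reflects its RNA or its library preparation was not tested. In bulk libraries fewer cells of a type and less RNA per cell cannot be told apart.

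The pair of vitrified embryos split the 6 genes. MSX2 and DLX3 were within 1.24-fold and 1.35-fold of each other in them, whereas embryo 2 was above embryo 1 3.3-fold in DLX5, 4.38-fold in BMP4, 4.8-fold in BMP2 and 40.5-fold in HAND1. ID1 (14.1-fold), ID3 (12-fold) and the homeobox gene MSX1 (4.39-fold) were also higher in embryo 2, while DLX4 and the trophoblast factors GATA2 and GATA3 were at 0.952, 0.961 and 0.98 of embryo 1. The 9 epiblast markers found in the table summed to 7.27 and 33.5 RPKM in the vitrified embryos, against 4.38 to 12.7 in fresh embryos. This sum adds values over unlike spans, and in embryo 1 POU5F1, NANOG and SOX2 gave only 0.316, 0 and 0.0813 RPKM of it. TDGF1 and SALL4 were at least 2.99 and 1.28 RPKM in both vitrified embryos, and averaged 4.13 and 2.11 in vitrified TE. The part of the epiblast in the differences between these 2 libraries was not tested.

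Of the 68 further genes in the lists of BMP ligands, receptors, antagonists, processing enzymes, SMADs, intracellular inhibitors, ID genes and relatives of the 6 genes, 49 were in the table and 32 were tested. In vitrified against fresh TE, where 69% of all tested genes were higher and 6.66% lower, 27 of these 32 were higher and 2 lower, but only 20 were higher per M listed-gene reads (2 lower), 13 by median-ratio scaling (6 lower) and 6 by quantile normalization (9 lower). Their median difference was 0.12, against 0.18 for all tested genes, on a scale that understates changes of values as low as many of these. In vitrified against fresh embryos 9 of 32 were higher and none lower, near the 26.9% higher and 3.94% lower of all tested genes. The number higher was 12 without embryo 1 and 1 without embryo 2. In fresh embryos against fresh TE 21 were higher and 2 lower, where 60% and 5.97% of all tested genes were, and by quantile normalization 4 were higher and 7 lower.

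Among other ligands 5 of 12 were in the table and only BMP7 was tested, at 0.114 ± 0.0196 RPKM in vitrified TE (n = 7) and 0.0348 ± 0.011 in fresh TE (n = 5). The 3.28-fold rise (difference 0.11, adjusted p = 1.8e-06, limma) was 0 by quantile normalization after rounding (adjusted p = 0.89). Of 8 receptors tested, 7 were higher in vitrified TE (69% of all tested genes were) and ACVRL1, a type I receptor, was lower (0.239 against 0.0396 RPKM, difference -0.25, adjusted p = 0.0005). ACVRL1 was also lower in fresh embryos than in fresh TE (-0.21, adjusted p = 0.0036). Other receptors differed little on the log2 scale: BMPR2, a type II receptor, rose by 0.03 (adjusted p = 0.00068), which from means of 0.00536 and 0.0301 RPKM is 5.61-fold but did not pass by quantile normalization (adjusted p = 0.95), and BMPR1A, a type I receptor, by 0.03 (adjusted p = 0.049). BMPR1A turned to -0.01, -0.04 and -0.1 under the other scalings, and lost its call when any of 15 of the 20 libraries was left out.

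Of the transducers, SMAD1 was lower in vitrified TE (0.123 ± 0.0569, n = 7, against 0.282 ± 0.103 RPKM, n = 5, difference -0.19, adjusted p = 0.00062, limma) and in fresh embryos (0.0909 RPKM, -0.23, adjusted p = 0.00017) than in fresh TE. The deposited values of SMAD5 were 1.68-fold higher in vitrified TE (0.07, adjusted p = 0.014), but the difference was -0.04 and -0.1 by median-ratio and quantile scaling. SMAD4 did not pass there (0.05, adjusted p = 0.32) and was lower by these scalings (-0.19 and -0.27). SMAD9 had at most 1 read in any library and was not tested.

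Of 5 inhibitors inside the cell that were tested, 4 were higher in vitrified than in fresh TE, where 69% of all tested genes were. BAMBI, a decoy receptor, did not pass, at 0.733 to 1.7 RPKM in vitrified and 0.592 to 0.964 in fresh TE (0.22, adjusted p = 0.11). The ubiquitin ligases SMURF1 (0 to 2 reads per library, against 19 to 30 in vitrified TE) and SMURF2 (1 to 6 against 31 to 73) were higher in vitrified TE (differences 0.17 and 0.14, adjusted p = 4.7e-08 and 4.4e-06, limma) under all 4 scalings. The inhibitory SMAD7 had 0 or 1 read against 3 to 14 (0.04, adjusted p = 0.0015), and did not pass by quantile normalization (adjusted p = 0.21). In vitrified against fresh embryos SMURF2 (2.58-fold, adjusted p = 0.0028) and SKIL, a SMAD co-repressor (3.05-fold, adjusted p = 0.0044), were higher. Both calls were lost without embryo 2 (adjusted p = 0.17 and 0.46).

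Of 6 antagonists tested, 5 were higher in vitrified than in fresh TE, where 69% of all tested genes were. The smallest adjusted p was that of TWSG1, which binds BMPs together with chordin (3.03-fold, 0.27, adjusted p = 1.7e-05, limma). The count of 5 was 4 per M listed-gene reads and 0 by quantile normalization. In fresh embryos against fresh TE all 6 were higher, where 60% of all tested genes were, and 1 was by quantile normalization. CER1, an antagonist of the anterior endoderm, held 0.0843 to 0.813 RPKM in fresh embryos but 1 read in all of fresh TE (0.36, adjusted p = 0.0019, limma, and under all 4 scalings). FST, or follistatin, was 1.62-fold higher in fresh embryos (0.65, adjusted p = 0.00083), and turned to -0.25 and -0.35 by median-ratio and quantile scaling.

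The ID genes are direct targets whose products bind bHLH factors without binding DNA. All 3 were higher in vitrified than in fresh TE as deposited, where 69% of all tested genes were. ID2 stood at 4.05 to 8.36 RPKM in fresh TE, and all other libraries held at least 31.2. Vitrified TE ranged from 61.7 through 74.6 to 94.9 RPKM, a 13.4-fold higher mean (difference 3.56, SE 0.23, adjusted p = 1.8e-10, limma). ID3 ranged from 9.94 to 41.9 RPKM in vitrified TE and from 2.15 to 5.26 in fresh TE, 6.83-fold apart (2.39, adjusted p = 0.00013). Both passed under all 4 scalings. ID1 passed as deposited (2.23-fold, 1.09, adjusted p = 0.029) and not per M listed-gene reads (0.51, adjusted p = 0.31), nor by median-ratio (0.06) or quantile scaling (0.11). Its call was also lost without fresh TE 3, 4 or 5 or vitrified TE 4 or 5 (adjusted p up to 0.069). The same held with the near-identical fresh TE libraries averaged (1.12, adjusted p = 0.065), with pseudocount 5 (adjusted p = 0.056) and with the replicate block (adjusted p = 0.073).

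In fresh embryos against fresh TE the ID differences were 3.34 for ID2, 2.44 for ID3 and 1.26 for ID1. All 3 passed as deposited, where 60% of all tested genes were higher. ID1 did not pass per M listed-gene reads (0.66, adjusted p = 0.22). In vitrified whole embryos ID2 was at 118 and 143 RPKM, above the 31.2 to 107 of fresh embryos (0.98, adjusted p = 0.028), though it did not pass without embryo 1 (adjusted p = 0.064) or embryo 2 (adjusted p = 0.23). ID1 and ID3 followed the split of the pair, with 11.3 and 12 RPKM in embryo 1 and 159 and 144 in embryo 2. Their differences from fresh embryos were 2.79 and 2.69 without embryo 1, and -0.92 and -0.8 without embryo 2. The vitrification effect on ID2 was 2.58 lower in whole embryos than in TE on the log2 scale (difference of effects -2.58, SE 0.4, adjusted p = 0.00011).

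**Figure D4:**
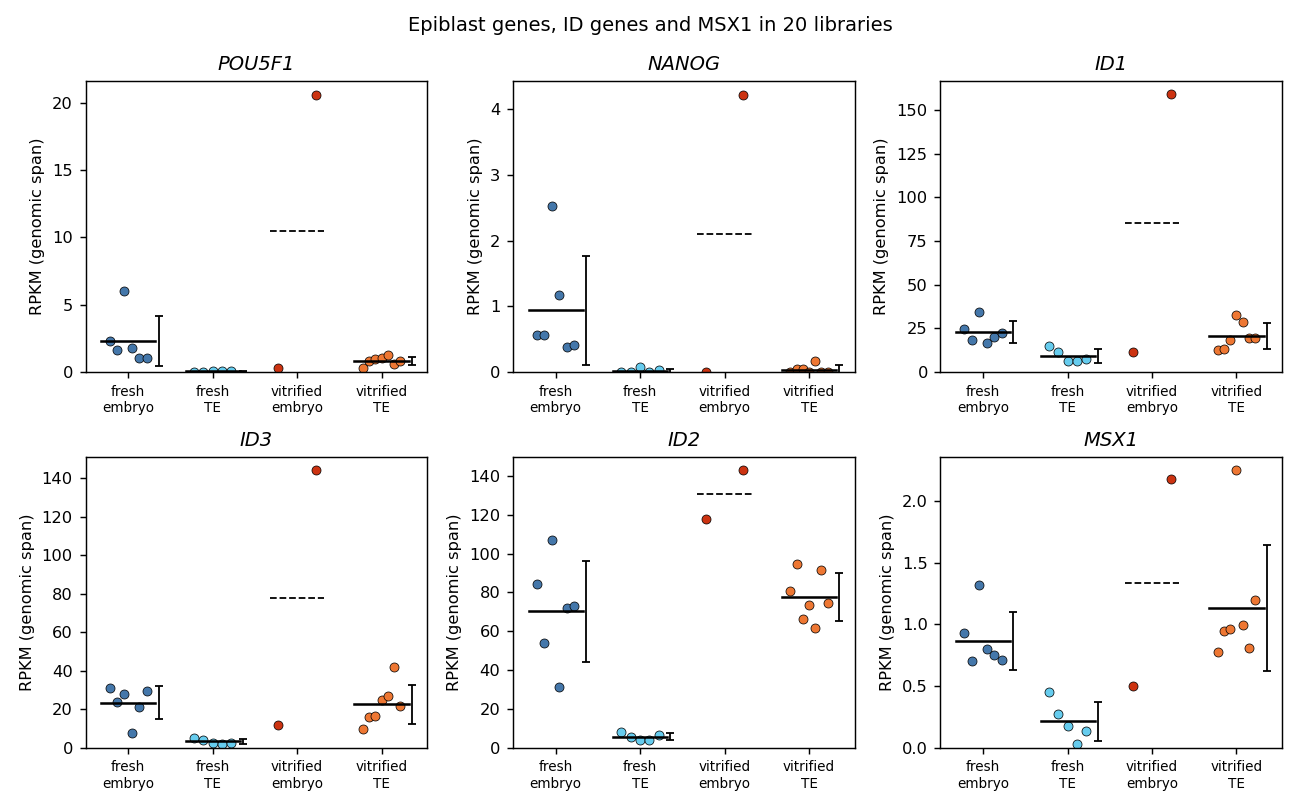
RPKM (per kilobase of genomic span, vertical axis) of the epiblast genes POU5F1 and NANOG, of ID1, ID2 and ID3 and of the homeobox gene MSX1 in each library by group (horizontal axis), with solid lines for means, bars for SD and dashed lines for the mean of the 2 vitrified embryos. ID2 was low in fresh TE alone, and vitrified embryos 1 and 2 lay far apart in POU5F1, NANOG, ID1 and ID3.

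Among relatives of the homeobox genes, DLX4 and MSX1 were the 2 of 5 tested. DLX4 lies 14.6 kb from DLX3 on the opposite strand, and DLX6 lies 10.5 kb from DLX5, also on the opposite strand. The gene spans of these pairs do not overlap, and whether counting used strand is not given in the sources used here. DLX4 rose in vitrified TE, from 0.428 ± 0.161 (n = 5) to 1.91 ± 0.35 RPKM (n = 7), with 1.27 RPKM as the lowest vitrified value and 0.596 as the highest fresh one (difference 1.03, SE 0.09, adjusted p = 1e-08, limma). Unlike its neighbour DLX3, it was higher in vitrified TE under all 4 scalings. It was also higher in fresh embryos (0.56, adjusted p = 4e-05), where DLX3 was lower, than in fresh TE, although by median-ratio and quantile scaling DLX4 did not pass (0.19 and 0.14). MSX1 rose 5.29-fold in vitrified TE (0.79, SE 0.16, adjusted p = 0.00023) under all 4 scalings. In whole embryos it did not pass (0.23, adjusted p = 0.46, limma), where MSX2 did, and was 0.78 without embryo 1 and -0.31 without embryo 2. DLX6 had at most 8 reads in any library and was not tested. HAND2, the paralogue of HAND1, had at most 2 reads.

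Markers of other cell types moved with these comparisons, and are read here against the 69% of all tested genes that were higher and the 6.66% that were lower in vitrified than in fresh TE. Hypoblast markers were higher in vitrified than in fresh TE in 9 of 9 tested, under all 4 scalings, and summed to 591 to 1250 RPKM against 150 to 322. In fresh embryos they summed to 563 to 991 RPKM, and in vitrified embryos to 202 and 693, with CUBN at 0 in both of the latter. Of the epiblast markers 3 of 8 tested were higher in vitrified than in fresh TE, with sums of 5.93 to 10.3 and 1.76 to 4.62 RPKM. Trophoblast markers went both ways as deposited, with 8 higher and 7 lower of 16, and summed to 2600 to 3730 against 2770 to 3590 RPKM. The 4 mesoderm markers in the table summed to at most 0.406 RPKM in any library. What part hypoblast or epiblast RNA has in the differences of BMP4, MSX2 and the ID genes between TE groups was not tested.

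Within groups of at least 6 libraries, 30 relations between pairs of the 6 genes were computed on log2(RPKM + 1). MSX2 and HAND1 were inversely ranked in vitrified TE: the library lowest in HAND1 (library 2, 0.199 RPKM) was highest in MSX2 (5.25), and the library highest in HAND1 (library 4, 2.23) was lowest in MSX2 (3.03). Pearson's r was -0.91 and Spearman's rho -1 (n = 7, exact two-sided permutation p = 0.0004 for each, the smallest that permutations can give, adjusted p = 0.012). Without the 2 libraries farthest from the median of MSX2, r was -0.78. No vitrified TE library lay between 3.58 and 4.74 RPKM of MSX2, so 3 libraries formed a lower and 4 an upper set. Over all genes the lower set, libraries 4, 5 and 7, had ratios of chi-square to degrees of freedom of 9.28 to 12.7. Within the upper set the ratios were 6.39 to 16.1, and across the sets 13.3 to 30.7. The permutation test treats the 7 libraries as exchangeable and takes no account of this split. In fresh embryos the same pair gave r = -0.22 (n = 6, exact permutation p = 0.69, adjusted p = 0.79). BMP2 in vitrified TE gave r = 0.78 with HAND1 and -0.86 with MSX2 (n = 7, exact permutation p = 0.021 and 0.023, adjusted p = 0.23 for both), and these fell to 0.26 and -0.47 without the 2 farthest libraries. No other relation was under an unadjusted p of 0.05.

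**Figure D5:**
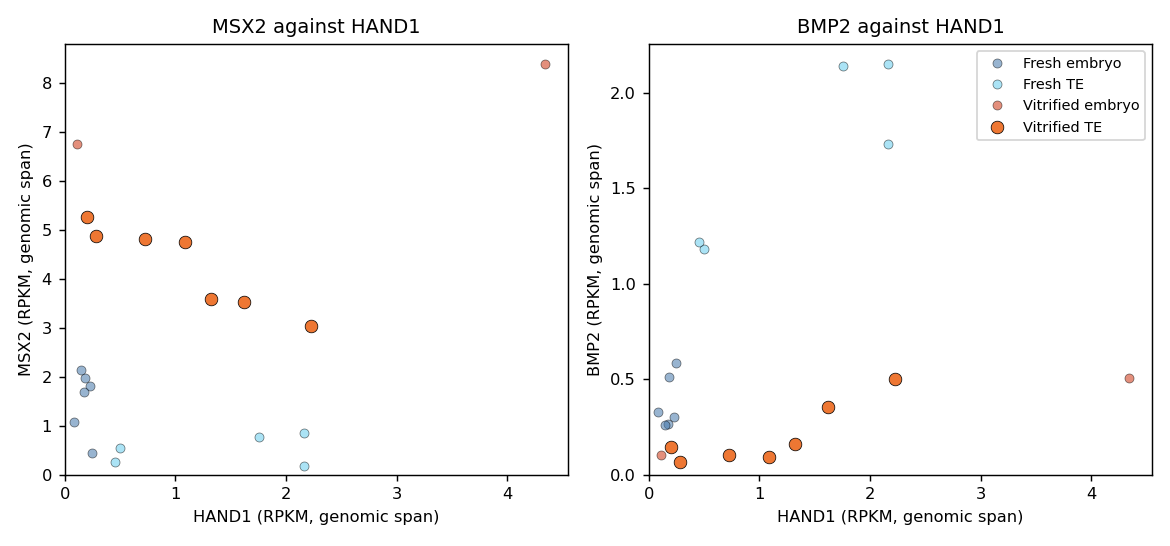
RPKM (per kilobase of genomic span) of MSX2 (left) and BMP2 (right) on the vertical axis against HAND1 on the horizontal axis, one point per library, coloured by group and larger for vitrified TE. In vitrified TE the ranks of MSX2 and HAND1 ran exactly opposite, from 0.199 and 5.25 RPKM to 2.23 and 3.03 RPKM.

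Profiles over all 20 libraries were compared by the mean absolute difference of centred log2(RPKM + 1) values, against 3946 candidate genes. Among the 6 genes DLX3 and DLX5 were the closest pair (0.338), and BMP2 and MSX2 the most distant (1.11). The nearest genes of the table were PLA2G7 (0.137) and REEP5 (0.14) to BMP2, HTRA2 (0.183) and TMEM59L (0.187) to BMP4, and TBCC (0.195) and ASF1B (0.219) to MSX2. For DLX3 they were LPCAT3 (0.252) and TMEM125 (0.254), for DLX5 TMEM125 (0.318) and DLX3, and for HAND1 HMGCS1 (0.383) and PRPF19 (0.394). PLA2G7, for example, averaged 1.41 RPKM in fresh TE and 0.171, 0.0725 and 0.00919 in fresh embryos, vitrified embryos and vitrified TE, which is the order of BMP2. The median distance of candidates was 0.397 for BMP4 and 0.633 to 0.767 for the others, so the closest genes to HAND1 were the least close.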

How the data were processed

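The deposited table holds RPKM values per gene for 20 libraries. Per the submitters' processing notes, the authors used FastQC, STAR 2.5.3a and Partek on the bovine assembly UMD3.1; strand use in counting is not given in the sources used here. Each value carried an offset of 0.01, which was subtracted. That the values are RPKM of genomic spans (median 16.8 kb) and what 1 read is worth were worked out from the values: 94.4 to 95.8% of values up to 1000 reads were within 0.1 of a whole read.

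Genes with at least 10 reads in at least 2 libraries were tested (10599, with 4943 not tested) on log2(RPKM + 1) in limma 3.58.1 with statmod 1.5.0 and R 4.3.3, with 1 mean for each of the 4 groups, trend and robust variance, and Benjamini-Hochberg adjustment over all tested genes. The script was checked on simulated data. The 6 genes, the pathway and marker lists and the rule for named genes (the 6, up to 3 genes a list with the smallest adjusted p, a fixed set of ID, SMAD, receptor and homeobox genes, and the 2 closest profiles among genes with a group mean of at least 1 RPKM) were chosen with earlier results of these data known. Relations between genes used exact permutation tests.

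Alternatives were other pseudocounts, filters, scalings (per M listed-gene reads, median-ratio, quantile), fits with only the groups compared, variance options, library weights, the replicate number as a block, averaged near-identical libraries and each library left out. Read numbers carry counting error only. No sequences are shown.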

Additional observations from a re-analysis of the deposited data

Results flagged for a closer look

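DLX3 in fresh embryo 2 stood apart from its group, at 0.715 RPKM where the other 5 libraries held 0.332 to 0.417, a gap of 0.779 of the group's range. It was the only one of 18 groups of 4 to 10 libraries examined (highest or lowest value of 6 genes in 3 groups) to do so, and chance alone gives about 1 in 20.

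The vitrification effect on BMP2 differed between whole embryos and TE by 1.06 on the log2 scale (SE 0.19, adjusted p = 0.00047, limma). BMP2 was 1.15 lower in vitrified than in fresh TE, and the difference was -0.09 in whole embryos. Leaving out vitrified embryo 1 gave 1.29 and leaving out embryo 2 gave 0.84.

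The effect on DLX5 differed by 1.45 (SE 0.3, adjusted p = 0.0015, limma), with a rise of 1.57 in whole embryos and a difference of 0.13 in TE. Without vitrified embryo 1 it was 2.06 and without embryo 2 it was 0.84 (adjusted p = 0.038).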

How the results depend on the processing

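Of 954 values of the 6 genes under alternatives, 880 kept their direction and side of the threshold, 25 fell short of it, 16 passed it and 33 changed sign. Each comparison counted all 20 libraries left out in turn, also those outside the groups compared. Leaving out such a library cannot change the difference, only its p through the shared spread, so the 880 overstates how far the values were tried. In vitrified against fresh TE BMP2, BMP4 and MSX2 kept their calls under all 32 alternatives, which include leaving out each whole embryo. Scaling mattered most there: per M listed-gene reads, by median ratio and by quantile, DLX5 was -0.33, -0.67 and -0.76 and SMAD4 -0.08, -0.19 and -0.27, and BMPR1A -0.01, -0.04 and -0.1. By median ratio and quantile SMAD5 was -0.04 and -0.1 and DLX3 -0.23 and -0.3, and BMP7 was -0 by quantile. HAND1 was 0.04 with library weights. In fresh embryos against fresh TE, by median ratio and quantile, SMAD4 was -0.01 and -0.05 and FST -0.25 and -0.35, and by quantile SMAD5 was -0.03 and BAMBI -0.02. The share of higher genes among those called, per M listed-gene reads, by median ratio and by quantile, went in this comparison from 90.95% to 71.05, 54.5 and 40.49%, in vitrified against fresh embryos from 87.22% to 83.56, 60.23 and 58.64%, between vitrified groups from 80.93% to 72.9, 55.11 and 55.94%, and for the difference of effects from 12.31% to 37.45, 51.51 and 63.25%.

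Between vitrified embryos and TE 0 of the 6 genes passed with pseudocount 0.1, without a filter, under each other scaling, without trend or robust variance, with weights, with the block or with averaged fresh TE. There BMP4 was -0.04 and -0.05 by median ratio and quantile, and DLX5 -0, -0.07 and -0.1 under the 3 scalings. For the difference of effects 4 passed with pseudocount 0.1 and under each other scaling, DLX3 and either BMP4 (-1.97, pseudocount) or HAND1 joining. MSX2 was -0.57 with pseudocount 0.1 and -0.04 with weights or averaged fresh TE.

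Whether the labels' replicate numbers pair the libraries was not settled: of 22 same-numbered pairs 7 correlated over 0.1 (lowest -0.185, highest 0.377). Differently numbered pairs were not computed, so these correlations have no reference. With the replicate block 4, 3, 6, 0 and 2 of the 6 genes passed in the 5 comparisons, DLX5 between vitrified groups was -0.13, the MSX2 difference of effects -0.17, and 790 genes of the table passed between vitrified groups, against 1998.

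Leaving out each library in turn, 3 to 5 genes passed in vitrified against fresh embryos and 0 to 1 between vitrified groups. In these comparisons BMP2 ranged from -0.31 to 0.14 and -0.11 to 0.33, BMP4 from -0.34 to 0.94 and -0.56 to 0.72, HAND1 from -0.09 to 2.18 and -0.82 to 1.45, ID1 from -0.92 to 2.79 and -0.75 to 2.96, and ID3 from -0.8 to 2.69 and -0.74 to 2.74. DLX5 ranged from -0.55 to 0.67 between vitrified groups, MSX1 from -0.31 to 0.78 in vitrified against fresh embryos, and the MSX2 difference of effects from -0.14 to 0.15. These ends come from vitrified embryos 1 and 2, except that fresh embryo 4 gave the -0.14. The cause of each change was not tested.

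Over the whole table, requiring 1 RPKM in 2 libraries left 4989 genes to test, and 4112 of these passed in vitrified against fresh TE (8017 of 10599 otherwise), 3910 in fresh embryos against fresh TE (6997), 1711 in vitrified against fresh embryos (3270) and 937 between vitrified groups (1998). In the last 2 comparisons 1863 and 597 passed by median ratio, 1574 and 497 by quantile, 2157 and 786 with only the groups compared, 1763 and 175 with weights, and 1137 and 139 without vitrified embryo 2. The fit with only the groups compared gives no value for the difference of effects. Low counts limit BMP4 and MSX2 in fresh TE and DLX5 and HAND1 in fresh embryos.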

Other observations

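GATA2, a trophoblast transcription factor, was looked at after its values were seen. In vitrified TE libraries 1 to 7 it held 20.5, 19.6, 23.3, 32.1, 27.3, 23 and 29.7 RPKM, so that the library highest in HAND1 (library 4) was highest in GATA2 and the library lowest in HAND1 (library 2) was lowest in it. GATA3, another trophoblast factor, went the other way at these ends, lowest in library 4 (2.5 RPKM) and highest in library 2 (3.5). In the vitrified embryos, which differed 40.5-fold in HAND1, GATA2 was at 10.5 and 10.1 RPKM. No relation was tested.

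DLX6 was too low to test, at up to 8 reads, and its mean was 0.116 RPKM in fresh TE and 0.0115 in fresh embryos. Its neighbour DLX5 had means of 2.25 and 0.214 RPKM in the same groups.

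Blood-cell markers summed to 9.8 to 15.9 RPKM in fresh TE and 3.65 to 7.23 in the other groups. The sum in fresh TE was mostly AIF1 (mean 11.4 RPKM, against 0.632 in vitrified TE), while CD68 (0.38 against 3.17), CD14 (0.244 against 0.643) and HBA (0.0976 against 1.38) were lower in fresh than in vitrified TE as deposited. Of 4 blood-cell markers tested 3 were thus higher in vitrified TE and 1 lower, where 69% and 6.66% of all tested genes were. Endometrial markers summed to 0.981 to 5.85 RPKM in all 4 groups.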
